A study of Mus musculus with 6 samples.

Results

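Cluster 9 is a small group of epithelial cells from the control mouse uterus. The authors clustered the epithelial cells of the control single-cell library on their own, and the cells given the number 9 in that clustering were taken as members where the count table held a column for them. There were 90 such cells among 2583 CO epithelial cells with counts in 15 clusters, a share of 3.48% (95% Clopper-Pearson interval 2.81 to 4.27). The cells they are set against are the 1818 cells of clusters 0, 1, 2, 5, 6, 7, 10 and 11, which are called the other luminal clusters here. Intervals throughout cover counting error only.

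The control (CO) library was made from the pooled uterine horns of 2 CD-1 mice that had received corn oil on neonatal days 1 to 5 and were 12 months old. The DES library came from 4 pooled CD-1 mice of the same age that had received diethylstilbestrol, a synthetic estrogen, at 1 mg/kg/day on those days, by the same subcutaneous route. Frozen uterine sections of 2 CO and 2 DES mice of that age were measured by spatial transcriptomics. With 1 single-cell library per treatment, values from cells describe that library and carry no test, and a difference between animals cannot be seen.

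The uterine lumen is lined by a simple columnar epithelium whose cells meet the embryo at implantation and respond to estrogen and progesterone. Glands open from it into the stroma and secrete serine proteases and other proteins that the lumen lacks. Numb, an adaptor protein that is passed unequally to daughter cells and antagonises Notch receptors, and Cyp21a1, the steroid 21-hydroxylase, were the genes given to mark these cells. Immediate early genes such as Fos, Jun and Egr1 encode transcription factors that are transcribed within minutes of a growth signal or of stress, including the stress of dissociating a tissue. Malat1 is a long noncoding RNA that stays in the nucleus, whereas mitochondrially encoded mRNAs lie in the cytoplasm.

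Several properties of these cells bear on every value that follows. The authors assigned 119 cells to cluster 9, so 29 of them (24.4%, interval 17.0 to 33.1) had no column of counts, against 17 of the 2510 other clustered CO epithelial cells (0.677%, 0.395 to 1.08). Of the 29 cells, 28 belonged to cluster 20 of the authors' second clustering, in which CO and DES epithelial cells were integrated. That integrated cluster held 57 cells, of which 49 were in cluster 9. The 90 cells described here thus hold fewer cells of that kind than the authors' cluster did. In all, 180 barcodes occurred in both libraries, and 1 cell of cluster 9 carried such a barcode.

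The 90 cells were spread over 4 integrated clusters. Integrated cluster 0 held 37 of them, cluster 14 held 22, cluster 20 held 21 and cluster 1 held 10. Depth differed between these parts. The median was 27083 UMIs (unique molecular identifiers, each standing for 1 captured RNA molecule) per cell in integrated cluster 0, 25633 in cluster 1, 19221 in cluster 14 and 3990 in cluster 20. Over the whole of cluster 9 the UMIs per cell had a median of 18583 and ran from 2217 to 75693, compared with a median of 25145 in the other luminal clusters. The 21 cells of integrated cluster 20 gave 101085 of the 1967207 UMIs of cluster 9, so their values are the least precise.

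**Figure D1:**
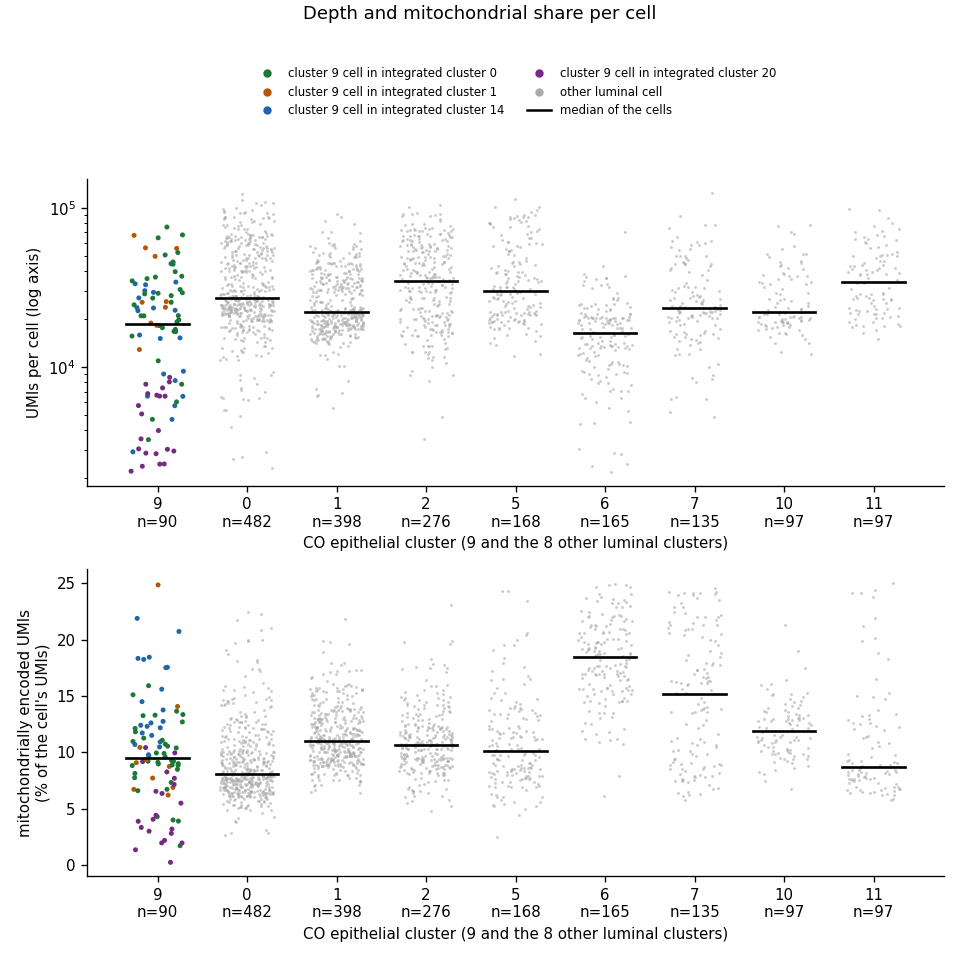
UMIs per cell (upper panel, log axis) and the share of UMIs from mitochondrially encoded genes (lower panel, percent) for each cell of cluster 9 and of the 8 other luminal clusters, with the median of each cluster as a bar. Cluster 9 cells are coloured by integrated cluster; those of integrated cluster 20 lie between 2217 and 8612 UMIs and have a median mitochondrial share of 4.06%, below the other 3 parts.

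By its epithelial genes, cluster 9 carried the luminal label. All 12 pan-epithelial genes of a fixed list were measured, meaning a mean level of at least 10 CPM (UMIs per 1000000 UMIs of the cluster) over the 15 clusters, and their summed level was 7798 CPM in cluster 9 against 8903 CPM in the other luminal clusters. Among the 9 luminal clusters only cluster 6 had a lower sum, at 7784 CPM. Of the 12 genes, 1 was at least 1.5-fold lower and none higher, beside 2.49% and 3.57% of all genes. Epcam, an epithelial adhesion molecule, stood at 978 CPM against 1054 CPM, and the simple keratin Krt8 at 1403 CPM against 1703 CPM. Krt18, the keratin by which the paper selected epithelial cells, was at 513 CPM, the lowest of the 15 clusters. It ran from 539 to 1295 CPM in the others. The 8 luminal genes that the study itself picked from these samples, which are therefore not independent evidence, summed to 843 CPM against 826 CPM. Of these 8, none was at least 1.5-fold higher and 1 was lower, beside 3.57% and 2.49% of all genes. The lower gene was Ifi203, an interferon-inducible gene, at 82.4 CPM against 127 CPM. The median ratio of the 8 genes was 1.05, the same as the median of 1.05 over all 7838 genes measured. Mature gland genes were low: Prss29, a gland serine protease, gave 20 UMIs (10.2 CPM), and Prss28 gave 2 UMIs. Prss29 was at 22.7 CPM in the pooled other luminal clusters, among which the highest reached 207 CPM. Across the 7838 genes, the log2 CPM profile of cluster 9 correlated best with that of luminal cluster 6 (Pearson's r = 0.980). These are genes of 1 library and are not independent. The lead was small, since the remaining luminal clusters had r = 0.944 to 0.977. Gland clusters 3, 8, 13 and 14 had r = 0.73 to 0.80.

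Numb was present at its highest level of the 15 clusters in cluster 9. Its level was 37.1 CPM from 73 UMIs in 45 cells, against 22.4 CPM in the other luminal clusters, a ratio of 1.65 (1.29 to 2.09). Among the other luminal clusters it ran from 17.9 CPM in cluster 5 to 26.0 CPM in cluster 7. It was lower but present in gland clusters 3, 8, 13 and 14, at 7.7 to 12.9 CPM, and lowest in cluster 14. In integrated clusters 0, 1, 14 and 20 its level was 37.6, 36.8, 37.8 and 29.7 CPM, from 41, 13, 16 and 3 UMIs. Set against other luminal cells of the same integrated cluster, the ratio was 1.67 (1.18 to 2.29) in cluster 0, while the intervals in cluster 1 (0.90 to 2.94) and cluster 14 (0.73 to 2.27) included 1. The cell with most Numb held 4 UMIs. Cells were thinned to 3000 UMIs to compare shares at 1 depth, which left out 8 cells of cluster 9 and 9 of the other luminal clusters. Numb was then found in 13.4% of 82 cells (6.89 to 22.7), in 6.63% of the other luminal cells (5.53 to 7.88), and in 6.24% of 977 CO mesothelial cells (4.81 to 7.95). Numb was at 21.3 CPM in CO mesothelial cells as a whole, so that share was not taken as a background, and no background for Numb was measured. In gland cells the share at 3000 UMIs was 3.86% (2.22 to 6.19). The intervals of cluster 9 and of the other luminal cells overlapped at this depth. At 5000 UMIs, which left out 15 cells of cluster 9, they did not, with 22.7% of 75 cells (13.8 to 33.8) against 10.8% (9.43 to 12.4). Gland cells had 4.77% at that depth. Cluster 9 was formed on these counts and Numb was given as its marker, so neither depth gives a test. The cells of 1 library are not replicates. Without thinning the shares were 50% in cluster 9 and 46.8% in the other luminal cells, at the median depths given above. They were 21.3% in gland cells and 22.6% in mesothelial cells. The Numb gene lies on the minus strand of chromosome 12, from 83794034 to 83921934 (GRCm38).

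Cyp21a1 did not set cluster 9 apart from the other luminal clusters. It stood at 125 CPM (246 UMIs in 71 cells), against 106 CPM in the pooled other luminal clusters, a ratio of 1.18 (1.03 to 1.34), and cluster 5 was higher at 136 CPM. Gland clusters 3, 8, 13 and 14 had 5.5 to 10.1 CPM. Outside the luminal and gland clusters, cycling cluster 4 had 83.5 CPM and cluster 12, the proposed stem cells, had 114 CPM. Within cluster 9 the level ran from 76.4 CPM in integrated cluster 1 to 188 CPM in integrated cluster 20. At 3000 UMIs, 30.5% of cluster 9 cells (20.8 to 41.6) and 26.9% of the other luminal cells (24.9 to 29.0) had a UMI, compared with 2.65% of gland cells and 1.74% of mesothelial cells, which give the background. The unthinned shares were 78.9%, 86.4%, 13.4% and 7.2%, at median depths of 18583, 25145, 17202 and 10509 UMIs. Cyp21a1 lies on chromosome 17, minus strand, from 34801348 to 34804561, and its near-identical pseudogene makes reads at this locus uncertain.

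Other genes of the Notch pathway gave 18 measured members of 38. Numb was the one member at least 1.5-fold higher and Hes1, a transcriptional repressor that Notch activates, the one at least 1.5-fold lower, at 133 CPM against 219 CPM. The receptor Notch1 stood at 38.6 CPM against 32.7 CPM, the ligand Jag1 at 27.5 CPM against 27.3 CPM, and Rbpj, the DNA-binding partner of the cleaved receptor, at 40.7 CPM against 29.2 CPM. The median ratio of the 18 genes was 1.15, and 1 of 18 either way is near the 3.57% higher and 2.49% lower among all genes. Against clusters 1, 2, 5, 6 and 10 alone Hes1 was no longer lower (ratio 1.15). It ran from 86.3 to 375 CPM among the other luminal clusters and from 82.6 CPM in integrated cluster 0 to 320 CPM in integrated cluster 1 within cluster 9.

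Across all genes, 280 of the 7838 measured genes (3.57%) were at least 1.5-fold higher in cluster 9 than in the other luminal clusters, and 195 (2.49%) were at least 1.5-fold lower. Because the clusters were formed on these same counts, these counts describe the clustering and test nothing. The interval of the ratio lay above 1 for 252 of the 280 genes and below 1 for 141 of the 195. Once the single cell with the most UMIs of a gene was left out of cluster 9, 149 of the 280 stayed at 1.5-fold or more. The other luminal clusters kept all their cells, so the sides of this comparison are unlike. Weighting every cell equally in place of summing UMIs, which gives the shallow cells more say, returned 735 higher and 315 lower genes. Above every one of the 8 other luminal clusters by 1.5-fold were 30 genes, and 8 genes with UMIs in cluster 9 were as far below every one.

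The highest ratios belonged to immunoglobulin genes, and 1 cell carried them. Igkc, the kappa light chain constant region, had 1124 UMIs in cluster 9 (571 CPM) against 22.1 CPM in the other luminal clusters, a ratio of 25.9 (23.9 to 28.0). Igha, the IgA heavy chain, stood at 265 CPM against 14.1 CPM, and Jchain, which joins IgA molecules into dimers, at 143 CPM against 4.53 CPM. Of the 1928 UMIs of these 3 genes, 1816 (94.2%) lay in a single cell of 29262 UMIs, and no cell of the other luminal clusters had more than 11. That cell also held 25 UMIs of Mzb1, a chaperone of plasma cells, beside epithelial transcripts: 41 UMIs of Krt8, 25 of Epcam and 651 of Sprr2f. Without the cell richest in each gene, the ratios of Igkc, Igha and Jchain were 1.42, 1.504 and 1.138. Jchain and Igkc are the products that plasma cells of a mucosa make in large amounts, and CO lymphocytes in the same library had 20630 and 90880 CPM of them.

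Other blood cell genes were also led by few cells. Lyz2, lysozyme of macrophages and neutrophils, had 49 UMIs in 6 cells, of which 32 were in 1 cell, and its ratio of 8.19 (5.85 to 11.3) was 2.88 without that cell. Gland cluster 13 had more Lyz2, at 78.6 CPM against 24.9 CPM in cluster 9. Luminal cluster 11, at 10.1 CPM, was above the 8.77 CPM of cluster 9 without that cell. A cell of the other luminal clusters held 26 Lyz2 UMIs. Ptprc, the leukocyte antigen CD45, had 56 UMIs in 21 cells, at most 15 in 1 cell. At 3000 UMIs it was found in 7.32% of cluster 9 cells (2.73 to 15.2), 1.44% of the other luminal cells (0.94 to 2.10), 12.8% of gland cells and 0.716% of mesothelial cells, against unthinned shares of 23.3%, 12.2%, 46.3% and 3.1%. Its ratio of 6.12 (4.50 to 8.18) was 4.56 without that cell, and none of the other luminal clusters exceeded 6.15 CPM against 28.5 CPM in cluster 9. Ptprc was higher still in gland clusters 3 (50.1 CPM) and 14 (72.7 CPM), so it is not confined to cluster 9 among CO epithelial clusters. Ctla2a, a cathepsin inhibitor after which the authors named a separate cell class, had 220 UMIs, 112 of them in 1 cell, and its ratio went from 3.87 to 1.92 without it. Cluster 11 was close, at 104 CPM against 112 CPM, and above the 55.4 CPM of cluster 9 without that cell. A cell of the other luminal clusters held 176 UMIs. Only cluster 9 lost its richest cell, so the sides of that comparison are unlike.

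**Figure D2:**
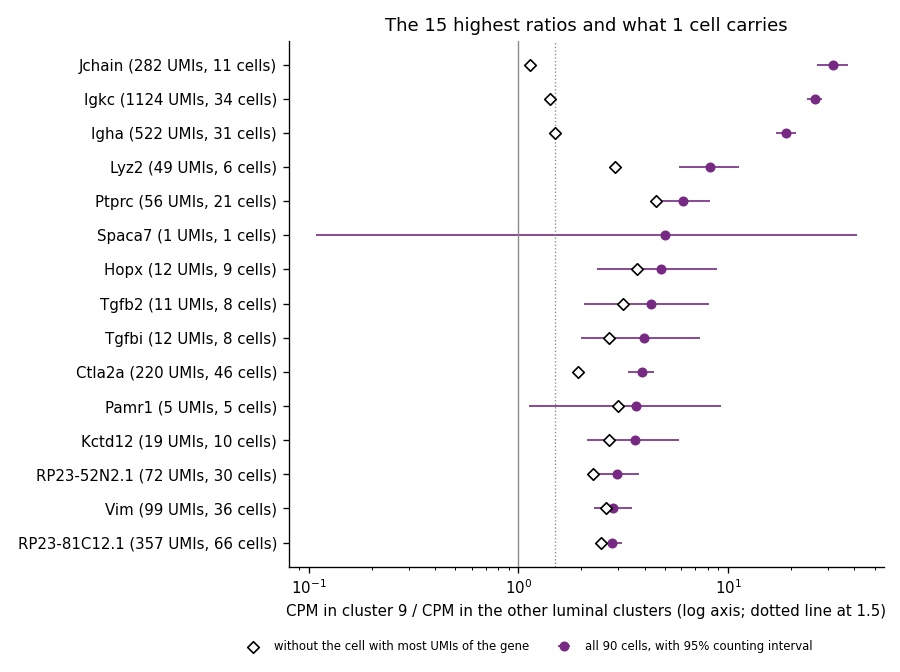
The 15 genes with the highest ratio of CPM in cluster 9 to CPM in the other luminal clusters (log axis), with the 95% counting interval as a bar and the ratio without the cell richest in that gene as an open diamond. Igkc and Jchain move from 25.9 and 31.6 to 1.42 and 1.138, while Vim moves from 2.84 to 2.61; Spaca7 has 1 UMI and no diamond, since its ratio becomes 0.

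Beyond these 6 genes, the 15 highest ratios held Hopx, a homeodomain-only protein (12 UMIs), the growth factor Tgfb2 (11 UMIs), the matrix protein Tgfbi (12 UMIs), the secreted protease-like Pamr1 (5 UMIs), Kctd12 (19 UMIs), and Spaca7, which rested on 1 UMI with an interval from 0.11 to 41.1. All 6 were at 10 CPM or under in cluster 9 and passed the measurement filter through clusters where they are high: against all other CO epithelial clusters pooled, Hopx, Tgfb2, Tgfbi, Pamr1 and Spaca7 had ratios of 0.65, 0.69, 0.28, 0.23 and 0.13. The last 3 of the 15 were Vim and the gene models RP23-52N2.1 and RP23-81C12.1, which the files name only by a clone.

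Vim, the intermediate filament vimentin of mesenchymal cells, was seen in 36 cells with 99 UMIs. Its level was 50.3 CPM, against 12.31 to 27.2 CPM across the other luminal clusters. It was 63.3 CPM in integrated cluster 0, 56.6 CPM in cluster 1, 16.5 CPM in cluster 14 and 29.7 CPM in cluster 20. The stromal and mesothelial lists were higher too. Of 6 measured stromal genes, 4 were at least 1.5-fold higher and none lower (median ratio 1.52), and 3 of 3 measured mesothelial genes were higher (median 1.66), beside 3.57% of all genes. Dcn, the proteoglycan decorin, stood at 416 CPM against 205 CPM, a ratio of 2.03 (1.89 to 2.18), with 454 CPM in gland cluster 14. It had a UMI in 96.7% of cluster 9 cells, 97.0% of the other luminal cells and 95.4% of gland cells, and at 3000 UMIs in 58.5% (47.1 to 69.3), 41.3% (39.1 to 43.7) and 45.8% (40.9 to 50.7). Col3a1, a fibrillar collagen chain, stood at 83.4 CPM against 48.0 CPM, whereas Col1a1 stood at 16.8 CPM against 18.5 CPM. Of the mesothelial genes, Msln (mesothelin) had 25.9 CPM against 13.9 CPM and Upk3b, a uroplakin, 32.5 CPM against 19.6 CPM. Dcn was far higher in other cell classes of the same library, at 8859 CPM in CO stromal cells and 17675 CPM in CO mesothelial cells. The source of the stromal and mesothelial transcripts in cluster 9 was not tested. Fn1 (fibronectin), Gas1, Cav1 (caveolin-1), Lgals1 (galectin-1), Mgp, Timp2 and Tcf4 were also among the 30 genes above every other luminal cluster; these names were picked after their values were seen.

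Markers of non-epithelial cells were summed over their lists, and in 6 of 7 lists cluster 9 had the highest level of the 9 luminal clusters. The exception was the red blood cell list, at 1570 CPM, with 1601 CPM in cluster 6. Gland cluster 14 exceeded cluster 9 in the stromal (768 CPM), endothelial (33.1 CPM) and muscle and pericyte (45.2 CPM) lists. The stromal list summed to 677 CPM, with 288 to 478 CPM in the other luminal clusters, and the mesothelial list to 115 CPM, with 50.1 to 79.0 CPM. The myeloid list gave 145 CPM (37.5 to 67.7 CPM), the endothelial list 23.4 CPM (5.31 to 12.35 CPM), and the muscle and pericyte list 35.6 CPM (7.60 to 27.6 CPM). For the lymphocyte list the value was 625 CPM, against 26.2 to 33.5 CPM, and 82.6 CPM without its richest cell. The muscle value, too, came mostly from 1 cell, which held 60.0% of it. It was 14.3 CPM without that cell, below the highest of the other luminal clusters, which kept all their cells. All 7 endothelial and all 10 lymphocyte genes had at least 1 UMI, and 2 of 7 muscle and 1 of 9 mesothelial genes were at 0.

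Counted by cell, 13 of 90 cluster 9 cells (14.4%, 7.92 to 23.4) held at least 10 UMIs of the myeloid, lymphocyte, endothelial or muscle list. In the other luminal clusters this was 25 of 1818 cells (1.375%, 0.89 to 2.02), although those cells were deeper. The 13 cells had a median of 28071 UMIs, against 16743 in the other 77 cells. They lay in integrated cluster 1 (6 of 10 cells), cluster 0 (5 of 37) and cluster 14 (2 of 22), and none lay in cluster 20. The 8 luminal genes summed to 863 CPM in these 13 cells, against 838 CPM in the other 77 cells. The pan-epithelial genes were lower in them, at 7201 CPM against 7946 CPM, as was Cyp21a1, at 84.2 CPM against 135 CPM. Numb went the other way, at 45.9 CPM (18 UMIs) in the 13 cells against 34.9 CPM (55 UMIs) in the 77. The authors removed doublets before deposit, and what part cells captured together play in these values was not tested here. With the cells over this limit left out of every cluster, 378 genes were at least 1.5-fold higher and 261 lower, and the ratios of Vim and Numb, which are on none of the 4 lists, were 2.71 and 1.55.

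**Figure D3:**
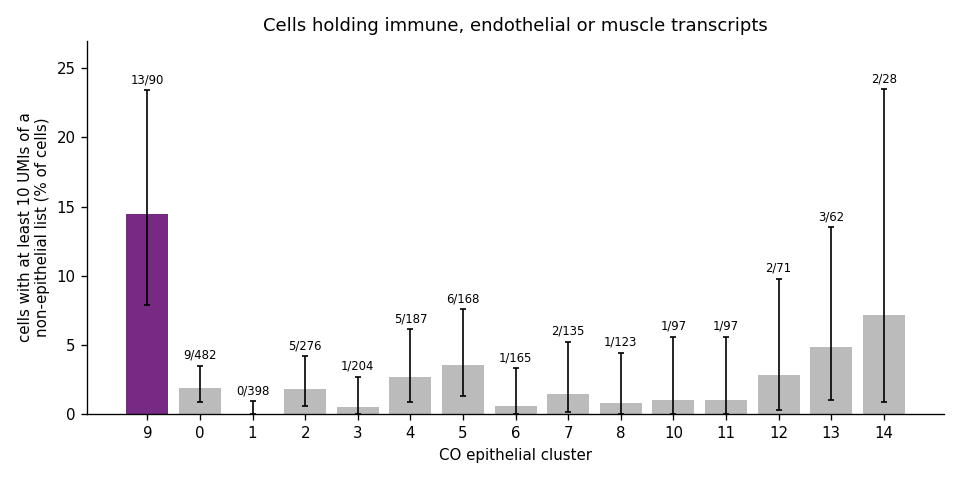
Share of cells (percent) with at least 10 UMIs of the myeloid, lymphocyte, endothelial or muscle list in each of the 15 CO epithelial clusters, with cell numbers above the bars and 95% Clopper-Pearson intervals. Cluster 9, at 13 of 90 cells, has the highest share of the 15; the intervals of clusters 12, 13 and 14, with 71, 62 and 28 cells, overlap its interval.

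Immediate early genes were lower in cluster 9 than in the pooled luminal clusters, but the comparison turned on which luminal clusters were pooled. Of 27 genes on the list, 25 were measured; 18 were at least 1.5-fold lower and none higher, beside 2.49% and 3.57% of all genes, and the median ratio was 0.52, beside 1.05 over all genes. The lowest was Egr2, with 5 UMIs (2.54 CPM) against 20.01 CPM. Fos stood at 452 CPM against 1103 CPM, Jun at 200 CPM against 528 CPM, Egr1 at 162 CPM against 405 CPM, Atf3 at 39.7 CPM against 122 CPM and Klf6 at 246 CPM against 711 CPM. Fosl2, Btg1 and Klf4 differed less, with ratios of 0.97, 0.91 and 0.82, and Nr4a2 was at 19.8 CPM against 15.5 CPM.

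The other luminal clusters themselves fell on either side. Summed over the 27 genes, the median cell had 14086 CPM in cluster 0, 16744 CPM in cluster 7 and 13379 CPM in cluster 11, against 2348 CPM in cluster 1, 2316 CPM in cluster 2, 2677 CPM in cluster 6 and 2387 CPM in cluster 10. Cluster 5 was mixed, at 4002 CPM with quartiles of 2097 and 12820. Cluster 9 had a median of 3104 CPM, between those sets. Set against clusters 1, 2, 5, 6 and 10 alone, a choice made after these levels were seen, only 1 of the 25 genes, Egr2, was at least 1.5-fold lower (1.33% of all genes), 4 were at least 1.5-fold higher (4.71% of all genes) and 19 had a ratio above 1, as did 62.9% of all genes. Fos then had a ratio of 1.221, Klf6 of 1.16, Zfp36 of 1.65 and Nr4a2 of 3.07. The 10 cells of integrated cluster 1 made much of this. Each of them exceeded 6000 CPM of immediate early transcripts, whereas 2 of the other 80 cells did. This was not particular to them, since 94.6% of the 802 other luminal cells of integrated cluster 1 exceeded it too. In integrated cluster 0, 0.874% of 801 other luminal cells did. The median of the 802 cells was 14250 CPM, above the 10568.5 CPM of the 10 cells. Fos was at 1662 CPM in these 10 cells and at 159, 215 and 376 CPM in the parts of integrated clusters 0, 14 and 20.

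**Figure D4:**
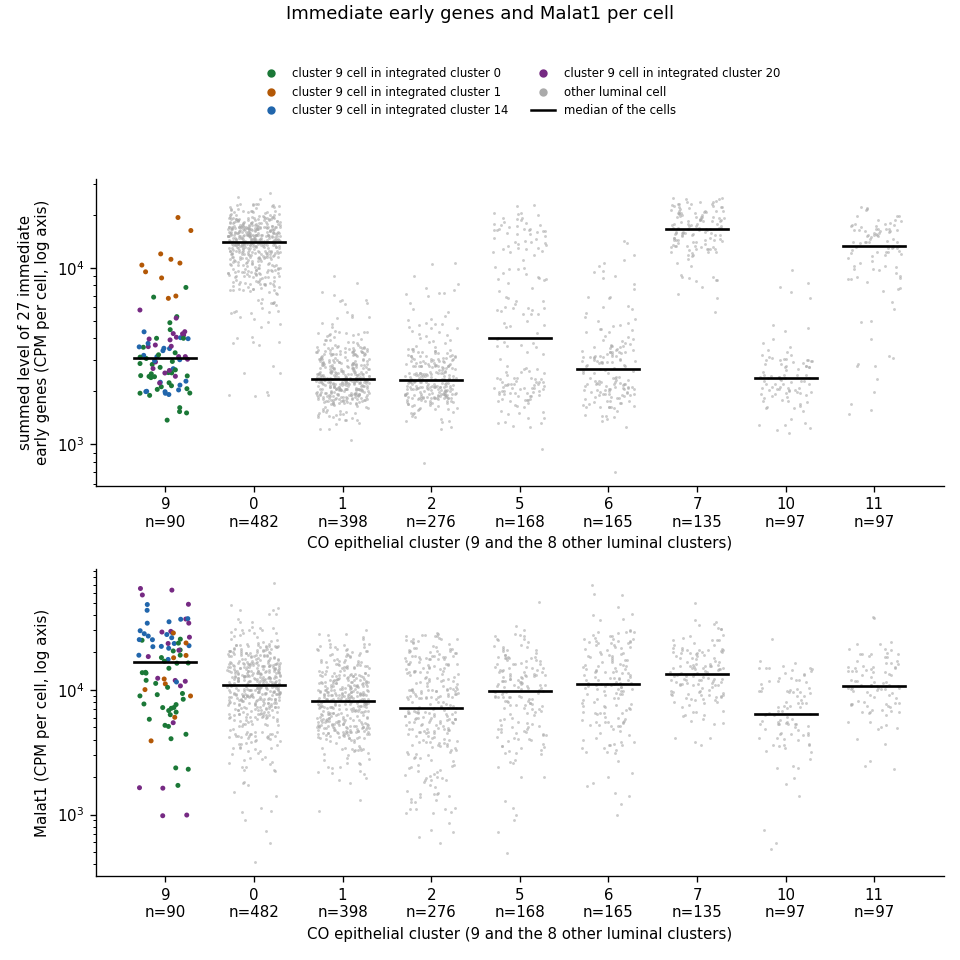
Summed CPM of 27 immediate early genes (upper panel) and CPM of Malat1 (lower panel) in each cell of cluster 9 and of the 8 other luminal clusters, on log axes, with the median of each cluster as a bar. The 10 cells of cluster 9 in integrated cluster 1 lie between 6752 and 19422 CPM of immediate early transcripts, and the other 80 lie mostly with clusters 1, 2, 6 and 10.

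The promoters of 2 of these genes are shown because they carry the letters of the element through which cyclic AMP and calcium signals act. They run from 250 bases before to 50 after the RefSeq start on GRCm38.p6, and capitals mark the half-site TGACGT or its reverse complement. Fos is on the plus strand at chr12:85473640-85473939 and Atf3 on the minus strand at chr1:191183284-191183583.
Fos: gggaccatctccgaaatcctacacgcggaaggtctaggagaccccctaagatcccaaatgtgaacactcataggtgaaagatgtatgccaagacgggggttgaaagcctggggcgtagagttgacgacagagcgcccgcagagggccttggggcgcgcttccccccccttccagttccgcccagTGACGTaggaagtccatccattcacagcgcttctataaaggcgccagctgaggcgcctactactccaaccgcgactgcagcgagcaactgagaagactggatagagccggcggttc
Atf3: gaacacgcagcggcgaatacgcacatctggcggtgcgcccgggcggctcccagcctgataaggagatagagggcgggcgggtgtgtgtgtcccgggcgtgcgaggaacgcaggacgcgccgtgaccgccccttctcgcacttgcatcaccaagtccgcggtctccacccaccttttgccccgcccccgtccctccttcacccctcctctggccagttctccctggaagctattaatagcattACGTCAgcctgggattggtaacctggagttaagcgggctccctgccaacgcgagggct
The half-site, searched on both strands, occurred in 5 of the 19 immediate early promoters that the table held (26.3%) and in 7.64% of 27025 promoters of that length. The full palindrome TGACGTCA, which contains it, occurred in 2 of the 19, those of Btg2 and Dusp1, and in 1.88% of all. These matches describe letters, and the motif was chosen after the sequences were seen.

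The NF-kB and inflammatory list summed to 8532 CPM in cluster 9, below both clusters 0, 7 and 11 pooled (11109 CPM) and clusters 1, 2, 5, 6 and 10 pooled (9555 CPM), although clusters 5 and 10 were above clusters 0 and 7. Clusters 2 and 6 were below cluster 9, at 8435 and 7497 CPM. Of 20 measured genes, 9 were at least 1.5-fold lower than in the pooled luminal clusters and 1 was higher, with a median ratio of 0.67, beside 2.49% lower and 3.57% higher among all genes. The neutrophil chemokine Cxcl1 stood at 26.9 CPM against 92.2 CPM, the cytokine Il1a at 11.2 CPM against 39.6 CPM, and Tnfaip3, an inhibitor that NF-kB induces, at 53.4 CPM against 133 CPM. Against clusters 1, 2, 5, 6 and 10 the list had 6 higher genes and 1 lower, beside 4.71% and 1.33% of all genes, and the ratio of Tnfaip3 was 1.82. Cldn4, a tight junction protein, and Hbegf, an epidermal growth factor ligand of implantation, gave 0.29 and 0.32 against the pooled clusters and 0.87 and 1.15 against those 5. The lowest ratios of all genes were 0 for Hpgds, Degs2, Cyp26a1, Rsph9, Krt17 and Krt23, which had no UMI in cluster 9; 3 UMIs there correspond to 1.52 CPM, and the pooled other luminal clusters had at most 1.596 CPM of them. The interval of each ratio included 1, so no difference was detectable at this depth. Scgb3a1, a secretoglobin, had 2 UMIs (1.02 CPM), a ratio of 0.08 (0.01 to 0.28) to a pool that was led by cluster 11 at 184 CPM, and of 0.63 (0.07 to 2.38) to clusters 1, 2, 5, 6 and 10. Arc, an activity-induced gene not on the immediate early list, had 3 UMIs and a ratio of 0.11 (0.02 to 0.31). Prss28, with 2 UMIs, had a ratio of 0.14 (0.02 to 0.50) to a pool led by cluster 7 at 80.6 CPM, and of 0.42 (0.05 to 1.57) to clusters 1, 2, 5, 6 and 10.

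Nuclear-retained RNAs summed to 17435 CPM in cluster 9 against 11710 CPM in the pooled luminal clusters, a level shared with luminal cluster 7 at 17428 CPM and gland cluster 13 at 17347 CPM. Malat1 stood at 15209 CPM against 9831 CPM, a ratio of 1.55 (1.53 to 1.57), and no other luminal cluster exceeded 14145 CPM, although mature gland cluster 13 had 15222 CPM. Its level per cell had a median of 16718 CPM and ran from 980 to 65071 CPM. Of the 4 measured nuclear-retained RNAs, Malat1 and Kcnq1ot1 were at least 1.5-fold higher and none was lower, beside 3.57% and 2.49% of all genes. Kcnq1ot1, an imprinted antisense transcript, was at 326 CPM against 211 CPM. Xist was at 1392 CPM against 1034 CPM, and Neat1, the scaffold of paraspeckles, was at 505 CPM against 633 CPM. The gene model RP23-81C12.3 had 5657 UMIs in all 90 cells and stood at 2876 CPM against 1323 CPM, close to cluster 6 at 2996 CPM. Lars2, a mitochondrial leucyl-tRNA synthetase, was at 75.7 CPM, against 31.2 CPM in the pool and 75.1 CPM in cluster 6. RP23-81C12.3 and Lars2 were named by the bound of their interval nearest 1, a rule added after the values were seen.

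The 4 parts differed in these RNAs. Malat1 was at 10520 CPM in integrated cluster 0, 13432 CPM in cluster 1, 25862 CPM in cluster 14 and 27343 CPM in cluster 20. RP23-81C12.3 reached 10061 CPM in integrated cluster 20. Mitochondrially encoded genes ran the other way there, summing to 48969 CPM, against 106290 CPM in the other luminal clusters, while integrated cluster 14 had 153910 CPM. The median mitochondrial share per cell was 9.27%, 8.91%, 12.7% and 4.06% in integrated clusters 0, 1, 14 and 20, and 10.7% in the other luminal clusters. The other luminal cells of integrated cluster 14 had a higher median, at 17.7%, and luminal cluster 6 summed to 181969 CPM. The 21 cells of integrated cluster 20 thus had less mitochondrial RNA and fewer UMIs than the other 3 parts. Per cell, their Malat1 level had a median of 20802 CPM and ran from 980 to 65071 CPM, below the median of 26623 CPM in integrated cluster 14. Their median sequencing saturation was 0.54, against 0.57 in the other luminal clusters. What part RNA quality has in their values was not tested. They still carried epithelial transcripts, with Krt8 at 1860 CPM and the luminal list at 821 CPM. Without them, 288 genes were at least 1.5-fold higher and 212 lower, and the ratio of RP23-81C12.3 was 1.88.

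**Figure D5:**
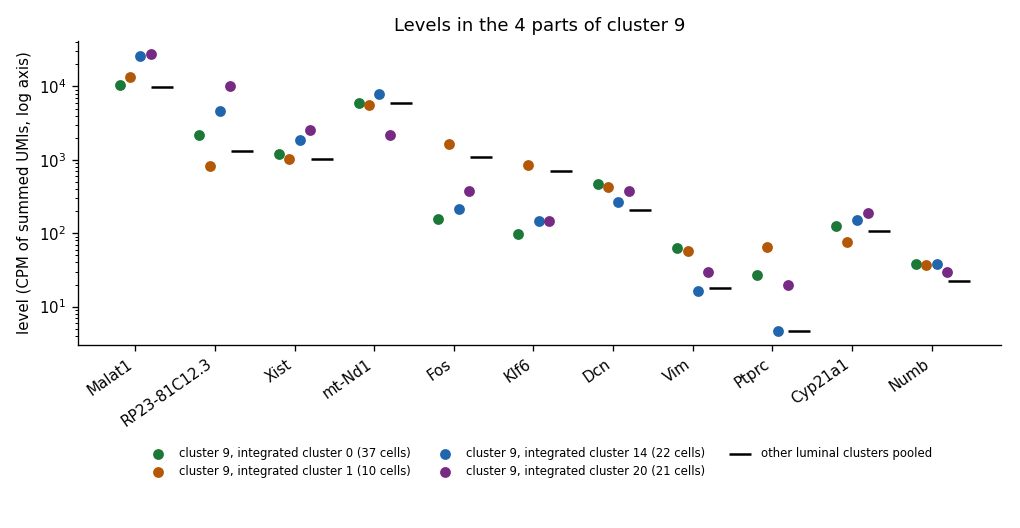
Level (CPM of summed UMIs, log axis) of 11 genes in the 4 parts of cluster 9, split by integrated cluster, with the pooled other luminal clusters as a dash; the parts have 37, 10, 22 and 21 cells. Summed Malat1 is highest and mt-Nd1 lowest in integrated cluster 20, Fos and Klf6 are highest in integrated cluster 1, and Numb is at 29.7 to 37.8 CPM in all 4.

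Each part was also set against the luminal cells of its own integrated cluster. In integrated cluster 0, where 7.02% of genes were at least 1.5-fold higher and 3.02% lower, Serpina1c, a serine protease inhibitor, was at 41.3 CPM against 192 CPM, Kap at 200 CPM against 649 CPM, and Ifit1, an interferon-induced gene, at 26.6 CPM against 79.4 CPM. Such levels were not particular to these cells, since whole luminal cluster 5 had 26.3 CPM of Serpina1c and 75.6 CPM of Kap, and cluster 2 led the pool at 415 and 969 CPM. Tm4sf1, a membrane protein, was higher there, at 45.9 CPM against 10.4 CPM in 20 of the 37 cells. In integrated cluster 14, with 13.8% higher and 9.94% lower, Malat1 was higher, at 25862 CPM against 14133 CPM in 22 of 22 cells, as were Timp3, a metalloproteinase inhibitor (73.2 CPM against 18.8 CPM), and Insr, the insulin receptor (73.2 CPM against 25.2 CPM), though 1 cell held 14 of the 31 Timp3 UMIs and 1 held 11 of the 31 Insr UMIs. Ifit1 was lower there, at 16.5 CPM against 53.8 CPM, from 7 UMIs. In the 10 cells of integrated cluster 1, with 9.91% higher and 14.4% lower, Ptprc was at 65.1 CPM against 4.04 CPM, from 23 UMIs in 7 cells, and Lrat, which stores retinol as esters, at 53.8 CPM against 6.75 CPM, with 9 of its 19 UMIs in 1 cell. Lower there were Sprr2d, a small proline-rich protein, at 2.83 CPM (1 UMI) against 58.8 CPM, and Tnip3, at 28.3 CPM (10 UMIs) against 160 CPM. Integrated cluster 20 held 6 other luminal cells, too few to set beside it. These genes were picked, after their values were seen, from the 12 highest and 8 lowest of each part by the bound of their interval.

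Most other gene groups had few members past 1.5-fold. None of 77 cytosolic ribosomal protein genes and none of 40 nuclear genes of oxidative phosphorylation was past 1.5-fold either way, with median ratios of 0.95 and 0.95. Among all genes 3.57% were higher and 2.49% lower. None of the 12 measured steroid-metabolising enzymes (median 0.99) and of 11 receptors and cofactors of steroid hormones (median 1.12) was past 1.5-fold. In lists this short, none is near the shares of all genes. Esr1, estrogen receptor alpha, was at 255 CPM against 226 CPM and Pgr, the progesterone receptor, at 92.5 CPM against 82.2 CPM. Of 23 measured interferon-stimulated genes, 3 were lower and none higher, beside 2.49% and 3.57% of all genes, with Ifit1 at 31.5 CPM against 64.0 CPM and Oas1a at 16.8 CPM against 30.3 CPM. The other luminal clusters ran from 19.7 to 140 CPM in Ifit1, with cluster 9 within them, and from 17.5 to 38.0 CPM in Oas1a. Against clusters 1, 2, 5, 6 and 10 the median ratio of this list was 0.82, with 5 of the 23 genes above 1. Among 18 cell cycle genes, 2 were higher and 1 lower, beside 3.57% and 2.49% of all genes, each on few UMIs and under 10 CPM in cluster 9 and in the pool. Mcm5 had 16 UMIs and a ratio of 1.88 (1.06 to 3.11), whereas the intervals of Ccna2 (8 UMIs, 0.73 to 3.49) and Pcna (10 UMIs, 0.29 to 1.12) included 1. Of 6 measured genes proposed for epithelial stem cells, Wnt7a, a ligand of the epithelium needed for gland formation, was the 1 member higher, beside 3.57% of all genes, at 14.7 CPM against 7.74 CPM (29 UMIs). Of 26 measured glycolysis and hypoxia genes, 2 were higher, Pdk1 and Pfkp, near the 3.57% of all genes, and 1 was lower, near the 2.49%: the vasodilator Adm, at 9.66 CPM against 39.0 CPM.

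In the DES library, the 16 DES epithelial clusters gave a range for the same genes, set side by side without a test. Numb ran from 14.1 to 22.3 CPM there, below the 37.1 CPM of cluster 9. Vim ran from 4.16 to 11.03 CPM and Malat1 from 3493 to 10055 CPM, also below cluster 9. The other CO luminal clusters overlapped the DES ranges in Numb (17.9 to 26.0 CPM) and Malat1 (7070 to 14145 CPM). In Vim they too lay above the DES range, at 12.31 to 27.2 CPM. Cyp21a1 was at 23.6 CPM and Dcn at 90.5 CPM over the pooled DES epithelium. Igkc and Jchain were at or below 1.17 CPM in each DES cluster. The other CO luminal clusters had at least 20.7 and 3.49 CPM of them. No library replicates either value, and the treatments cannot be told apart from the 2 libraries.

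The spatial sections are the one place where treatments can be compared over animals, with 2 CO and 2 DES sections of 9117099 to 12506177 UMIs. They hold the whole uterine wall, so fewer cells of a type and less RNA per cell cannot be told apart, and none of the values belongs to cluster 9 alone. The paper reports a substantial tissue fold in the second CO section and limited cluster identification in the second DES section. Before mice were selected, DES tissue was evaluated for the presence of adenocarcinoma. The CO sections were themselves unlike, with Ctla2a at 591 and 4903 CPM and Pamr1 at 21.9 and 202 CPM. With edgeR's quasi-likelihood fit and p-values adjusted by Benjamini-Hochberg over all genes, 747 of 14098 genes (5.3%) differed, 2.67% higher and 2.63% lower in DES. These p-values measure the spread between 2 sections of 1 mouse each. Of the 15 genes with the highest ratios in cluster 9, 14 were tested and 3 passed, since Spaca7 had no UMI. Igkc was at 186 and 362 CPM in the CO sections and at 2726 and 5220 CPM in the DES sections, with no overlap, a log2 difference of 3.67 (SE 0.52, edgeR adjusted p = 0.0312). Hopx was at 4.96 and 10.6 CPM in CO and 59.7 and 61.6 CPM in DES (log2 difference 2.77, SE 0.37, edgeR adjusted p = 0.0304). Kctd12 was at 109 and 183 CPM in CO and at 52.4 and 42.7 CPM in DES, where it fell by 1.82 on the log2 scale (SE 0.29, edgeR adjusted p = 0.0394). Hopx and Kctd12 had only 12 and 19 UMIs in cluster 9 and passed the measurement filter through other clusters. Their section values therefore say little of cluster 9. All 3 calls were lost when either DES section was left out, with edgeR adjusted p of 0.0557 to 0.231, and that of Kctd12 also without a filter on low counts (edgeR adjusted p = 0.0534). The remaining 11 did not pass, among them Jchain (log2 difference 3.01, edgeR adjusted p = 0.0596), Ctla2a (-5.80, 0.0593) and Vim (-1.66, 0.186). With the section number as a block, Jchain, Igha and Ctla2a passed (edgeR adjusted p = 0.0265, 0.0423 and 0.0458) and Kctd12 did not (0.0587). DESeq2, run as an alternative, called 7 of these 11, with an adjusted p of 7.9e-08 for Jchain, of 0.0246 for Igha, and of values between these for Ctla2a, Lyz2, Tgfb2, Tgfbi and Vim. For Numb the sections had 29.2 and 20.03 CPM in CO and 21.1 and 24.5 CPM in DES (edgeR adjusted p = 0.53), with overlap. Cyp21a1 differed most between the CO sections, at 127 and 8.25 CPM, with 42.0 and 41.1 CPM in DES between them (edgeR adjusted p = 0.677).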

How the data were processed

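Single cells of pooled uteri (1 library per treatment, Chromium 3' v3) and 4 Visium sections were measured. Per the labels and the study's methods, the authors processed reads with bcl2fastq 2.20.0.422, Cell Ranger 3.0.1 or Space Ranger 1.2.2 on mm10, removed doublets, and clustered epithelial cells in Seurat. The deposited tables hold raw UMI counts per gene and cell or spot. The authors also deposited a sequencing saturation per cell as a fraction, used here only as a description, and their cluster numbers.

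UMIs were summed over cells, and CPM ratios were given exact 95% intervals (Poisson for levels, conditional binomial for ratios, Clopper-Pearson for shares; Python 3.11.15, scipy 1.17.1). Genes with a mean of at least 10 CPM over the 15 CO clusters were measured; a group at 0 was given a floor of 3 UMIs over the group. No test was run on cells. Cells were thinned to 3000 UMIs (5000 and none as alternatives). The text names the 15 highest and 10 lowest ratios, the markers and the members of 33 gene lists; names outside this rule are given as chosen later. No gene of the endothelial, muscle, basal and ciliated lists passed the filter; the basal and ciliated lists summed to 5.1 and 2.5 CPM in cluster 9. Sections were summed over spots and fitted with edgeR 4.0.16 (TMM, filterByExpr, adjusted p at 0.05) in R 4.3.3, with DESeq2 1.42.0 as an alternative. Both procedures were tested on simulated data, drawn without spread between cells for the ratios and with the same dispersion for every gene for the sections. Such draws do not cover genes carried by single cells or genes that differ widely between sections of a group. The cluster, its lists and its comparisons were chosen with earlier results of these data known. Counts of 350 cells listed in the metadata were not analysed here.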

Additional observations from a re-analysis of the deposited data

How the results depend on the processing

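The share of cluster 9 was 4.53% when cells without counts were included. The number of genes at least 1.5-fold higher than the pooled luminal clusters was 735 with cells weighted equally, 626 with a filter of 5 CPM, 21 with a filter of 50 CPM, 45 at 2-fold and, added after seeing the data, 149 without each gene's richest cell. The number lower was 315, 360, 65, 69 and 330 under those settings, 389 against all other CO epithelial clusters and, added later, 104 against luminal clusters 1, 2, 5, 6 and 10. The settings differ by construction in which genes or cells enter. The richest cell of a gene was removed from cluster 9 alone. Against all other clusters the ratios of Spaca7, Hopx, Tgfb2, Tgfbi and Pamr1 turned to 0.13, 0.65, 0.69, 0.28 and 0.23. Without the 13 cells with transcripts of other lineages that of Lyz2 turned to 0.21, and to 0.31 with such cells left out of every cluster, which follows from choosing those cells by a list that holds Lyz2. Without its only cell that of Spaca7 to 0, and against clusters 1, 2, 5, 6 and 10 those of Klf6 and Hbegf to 1.16 and 1.15. Of the ratios of named genes, 372 stayed within their intervals, 62 moved outside them without changing direction and 10 reversed.

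For the sections, DESeq2 called 1791 genes, among them 7 of the 11 leading genes that edgeR did not call, and leaving out 1 section gave 3 to 2819, with the 3 and the 14 arising where a DES section was left out and the lone DES section was assumed to vary like the CO sections. The cause was not tested. With the section number as a replicate block 527 genes were called. Deviations of same-numbered sections from their group mean had r = -0.0094 over genes. With 2 sections per group this does not settle whether same-numbered sections belong together, and the main fit treated them as unpaired. Under the block Kctd12 had an edgeR adjusted p of 0.0587, and Jchain, Igha and Ctla2a had 0.0265, 0.0423 and 0.0458. Under the block the log2 difference of Cyp21a1 turned to 0.075. Leaving out 1 section at a time moved that of Cyp21a1 from -1.84 to 2.15, that of Numb from -0.59 to 0.0038 and that of Pamr1 from -2.40 to 0.76, with the positive values of Cyp21a1 and Numb without the first CO section and that of Pamr1 without the second, where Epcam was at -0.18, Vim at -0.60 and Ctla2a at -3.63. Depth limits what can be said of genes with few UMIs: 36 of the 280 higher genes had under 20 UMIs in cluster 9.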
